A study of Mus musculus with 8 samples.

Results

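Of the 3847 sites that the authors listed as bound by Foxp3 in common, 645 (16.8%) had their centre within 1 kb of either end of a protein-coding gene, and these gene-end sites are described here over all 8 libraries. Gene ends came from the RefSeq gene table of build GRCm38.p6, and the sites are given in mm10, the same assembly. The cells were regulatory T (Treg) cells of C57BL6/J mice, taken from spleen and lymph nodes and sorted fresh as CD4+hCD2+GFP-. The assay was CUT&Tag, where a transposase guided by an antibody cuts and tags the DNA around the antibody's target. Cells of the R397W genotype (Foxp3R397W-IRES-hCD2/Foxp3-IRES-GFP) and of the WT genotype (Foxp3WT-IRES-hCD2/Foxp3-IRES-GFP) each gave 2 libraries with a Foxp3 antibody and 2 with normal rabbit IgG. All 4 groups thus shared a GFP-tagged Foxp3 allele, and the sort kept cells negative for GFP and positive for the hCD2-tagged allele. The labels do not say whether libraries 1 and 2 of a group came from separate mice, so p-values measure only the spread between these libraries, which may be technical.

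Foxp3 is a forkhead transcription factor that Treg cells need for their identity and suppressive function, and R397W changes an amino acid of its DNA-binding forkhead domain. Promoters lie at gene starts and are often CpG-rich and open in chromatin, and in T cells most of the regulatory elements that distinguish cell types lie outside promoters. An IgG library measures the cutting that takes place without a specific antibody target, so a site's Foxp3 value is read beside its IgG value.

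The gene-end sites clustered tightly at gene starts. Among the 501 sites whose nearest gene had a known strand, 453 (90.4%) were nearest to the start and 48 to the 3′ end. The strand of the nearest gene was not in the table used here for the other 144 sites, so membership was set by either end. Within 1 kb of a start of known strand lay 462 sites, 250 upstream and 212 downstream, with a median position of -11.5 bp from the start (quartiles -69.0 and 96.5 bp). The median distance to the nearer gene end was 95 bp. Up to 500 bp lay 543 sites, and up to 100 bp lay 337. The 645 sites had 630 different nearest genes, and 717 genes had an end within 1 kb of at least 1 site. A pair of starts on opposite strands lay within 1 kb of 51 sites. All but 1 of the sites spanned 400 bp. The exception, at D17H6S56E-5, spanned 657 bp. Gene-end sites made up a smaller share of the other site classes, at 23 of 727 cTreg-specific sites (3.16%, exact 95% binomial interval 2.02 to 4.71) and 41 of 947 eTreg-specific sites (4.33%, 3.12 to 5.83), against 16.8% (15.6 to 17.98) of common sites. These intervals cover counting error only and treat the listed sites as independent, and the classes were not tested against each other.

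Promoter sequences are shown for the sites with the most Foxp3 signal that had one (1700056E22Rik, Dusp6 and Psph, which shares its promoter with Cct6a), for the T cell receptor genes Lat and Cd3g, and for 2 genes with contrasting values, Ctnnb1 and Foxp3. Each window runs from 250 bases before to 50 bases after the start, 5′ to 3′ on the gene's own strand, from RefSeq build GRCm38.p6, with CG dinucleotides in capitals. These windows differ widely in their CpG content, with 46 CG dinucleotides in the Ctnnb1 window, 28 in Psph, 19 in Dusp6, 18 in 1700056E22Rik, 10 in Lat, 6 in Foxp3 and 4 in Cd3g. The Ctnnb1 and Foxp3 windows were chosen after their values were seen.
1700056E22Rik (chr1:184033949-184034248, minus strand): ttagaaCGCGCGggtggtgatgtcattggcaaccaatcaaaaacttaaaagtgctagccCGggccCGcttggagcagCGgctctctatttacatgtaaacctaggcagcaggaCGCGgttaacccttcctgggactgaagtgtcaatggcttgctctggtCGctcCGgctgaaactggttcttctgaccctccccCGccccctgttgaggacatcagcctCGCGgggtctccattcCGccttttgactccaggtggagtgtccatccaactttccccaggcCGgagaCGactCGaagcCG
Dusp6 (chr10:99262981-99263280, plus strand): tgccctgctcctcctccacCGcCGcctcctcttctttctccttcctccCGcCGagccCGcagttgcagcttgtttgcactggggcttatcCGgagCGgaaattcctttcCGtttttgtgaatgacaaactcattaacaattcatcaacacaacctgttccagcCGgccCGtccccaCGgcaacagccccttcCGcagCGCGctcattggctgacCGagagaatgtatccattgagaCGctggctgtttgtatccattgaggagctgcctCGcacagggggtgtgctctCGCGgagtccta
Psph (chr5:129787204-129787503, minus strand): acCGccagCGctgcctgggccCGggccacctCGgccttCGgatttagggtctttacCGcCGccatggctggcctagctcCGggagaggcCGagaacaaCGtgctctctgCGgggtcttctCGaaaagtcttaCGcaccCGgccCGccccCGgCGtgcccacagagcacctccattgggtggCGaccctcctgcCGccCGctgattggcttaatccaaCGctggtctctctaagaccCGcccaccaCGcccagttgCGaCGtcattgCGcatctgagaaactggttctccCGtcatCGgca
Ctnnb1 (chr9:120933150-120933449, plus strand): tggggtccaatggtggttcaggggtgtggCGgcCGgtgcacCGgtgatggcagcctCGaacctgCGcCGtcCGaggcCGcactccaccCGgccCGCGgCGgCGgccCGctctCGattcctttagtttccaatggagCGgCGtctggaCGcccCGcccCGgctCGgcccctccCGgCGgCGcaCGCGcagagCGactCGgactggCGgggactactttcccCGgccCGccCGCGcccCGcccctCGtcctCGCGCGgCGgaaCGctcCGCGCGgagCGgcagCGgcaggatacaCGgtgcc
Lat (chr7:126369519-126369818, minus strand): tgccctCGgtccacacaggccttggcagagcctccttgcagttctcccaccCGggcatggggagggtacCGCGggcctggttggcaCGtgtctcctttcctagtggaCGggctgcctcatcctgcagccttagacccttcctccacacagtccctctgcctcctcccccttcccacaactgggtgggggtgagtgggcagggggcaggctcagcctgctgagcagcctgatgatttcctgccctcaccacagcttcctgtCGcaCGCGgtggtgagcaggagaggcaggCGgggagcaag
Cd3g (chr9:44980382-44980681, minus strand): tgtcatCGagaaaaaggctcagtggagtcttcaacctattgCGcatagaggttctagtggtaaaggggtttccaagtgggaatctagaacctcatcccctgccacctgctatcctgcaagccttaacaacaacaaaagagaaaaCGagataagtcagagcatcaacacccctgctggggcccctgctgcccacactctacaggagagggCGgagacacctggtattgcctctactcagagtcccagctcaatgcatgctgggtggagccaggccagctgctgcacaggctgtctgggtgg
Foxp3 (chrX:7579426-7579725, plus strand): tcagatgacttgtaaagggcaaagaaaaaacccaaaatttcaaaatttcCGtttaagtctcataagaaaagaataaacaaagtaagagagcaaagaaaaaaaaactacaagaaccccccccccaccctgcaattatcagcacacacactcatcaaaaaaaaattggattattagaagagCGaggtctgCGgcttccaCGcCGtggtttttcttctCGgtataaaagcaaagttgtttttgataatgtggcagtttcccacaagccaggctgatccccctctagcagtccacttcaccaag

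A promoter window of this kind overlapped 373 of the 645 sites, and most of them were CpG-rich. With CpG-rich meaning at least 50% G and C and an observed over expected CpG ratio of at least 0.6, 277 of 373 windows at gene-end sites (74.3%) were CpG-rich, against 45.1% of all 21262 windows in the table. The median window held 21 CG dinucleotides at gene-end sites and 13 over all windows. Windows at gene-end sites are part of all windows, and no test was made of these shares.

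Motif matches were counted as exact letters on both strands, and matches to different motifs could share bases. The forkhead motif TGTTTAC, the core that Foxp3 and other forkhead factors recognise, was present in 33 of 373 windows at gene-end sites (8.85%) and in 3.01% of all windows. Within CpG-rich windows alone the shares were 7.58% and 1.94%, and within the other windows 12.5% and 3.88%, so the higher share was present in both CpG classes. The ETS core CCGGAA was in 39.9% of windows at gene-end sites and 18.7% of all windows, and the YY1 motif AAGATGG in 15.0% and 6.24%. For ETS the shares among CpG-rich windows were 47.3% and 31.3%. GGGCGG, the SP/KLF box, was in 59.2% and 46.2%, but within CpG-rich windows it was less frequent at gene-end sites, at 70.4% and 76.8%. CCAAT, the NF-Y box, was in 29.2% and 38.2%, and within CpG-rich windows in 27.8% and 36.1%. TATAAA was in 7.51% and 12.6%, but within CpG-rich windows in 5.05% and 4.52%. The AP-1 motif TGANTCA was in 5.09% and 6.99%, the RUNX motif TGTGGT in 14.2% and 15.0%, the STAT motif TTCNNNGAA in 7.24% and 7.69%, and the CRE motif TGACGTCA in 2.41% and 2.23%. Longer motifs were rarer, with a T-rich forkhead repeat in 6 windows at gene-end sites (1.61%) against 0.701% of all windows and the NRF1 palindrome in 10 (2.68%) against 1.33%. Within CpG-rich windows the NRF1 shares were close, at 2.89% and 2.61%. A match is a description of these letters and not of binding.

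**Figure D1:**
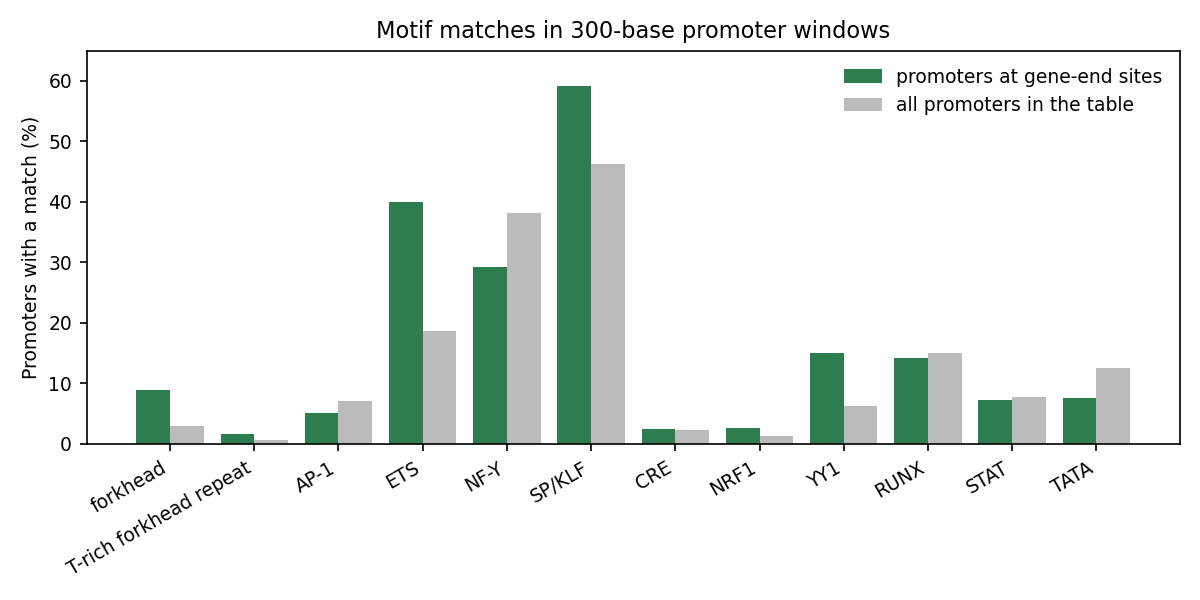
Share of promoter windows with at least 1 match on either strand, in percent, for 12 motifs, at the 373 windows that overlap a gene-end site (green) and over all 21262 windows (grey). The forkhead, ETS and YY1 bars at gene-end sites stand above those of all windows, at 8.85% against 3.01%, 39.9% against 18.7% and 15.0% against 6.24%, while the NF-Y and TATA bars stand below at 29.2% against 38.2% and 7.51% against 12.6%.

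Stretches around the forkhead match are shown for 3 of the 33 windows, with the match on the printed strand (GTAAACA, the reverse complement of TGTTTAC) in capitals. Cfap20 has one of the 8 highest Foxp3 signals, Zup1 had more Foxp3 than IgG signal in every library, and Aacs had less, and they were chosen with their values known. The first letter shown in capitals lies at -182 in Cfap20, -179 in Zup1 and -237 in Aacs, counted from the base before the start as -1.
Cfap20 (chr8:95435030-95435066, minus strand): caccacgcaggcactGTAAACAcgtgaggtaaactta
Zup1 (chr10:33951417-33951453, minus strand): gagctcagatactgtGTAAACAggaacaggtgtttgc
Aacs (chr5:125475623-125475657, plus strand): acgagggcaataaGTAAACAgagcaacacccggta

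The data are normalised read counts per site, deposited by the authors, and 1 read was worth between 0.466 and 2.63 of these units depending on the library. Whole reads could be recovered for every value. Reads in the common sites numbered 82560 and 224118 in R397W Foxp3 libraries 1 and 2, 199497 and 314574 in WT Foxp3, 85228 and 214094 in R397W IgG, and 233962 and 243342 in WT IgG. At the gene-end sites the median site had 25 to 130 reads in a library. Coverage was uneven. Library 2 of each group had more gene-end sites without reads than library 1, at 4.34% and 18.1% of sites in R397W Foxp3 libraries 1 and 2, 0% and 9.92% in WT Foxp3, 4.34% and 19.5% in R397W IgG, and 5.74% and 22.9% in WT IgG. Libraries with the same number are therefore set side by side below, although the labels do not say that the number marks shared cells. The deposited scale matters here. Each library's factor equalled the median-of-ratios size factor over the 815 common sites with reads in all 8 libraries, and 409 of those (50.2%) were gene-end sites. A Foxp3 to IgG ratio near 1 at gene ends is thus partly set by the scaling. Shares of reads within a library do not depend on it.

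Gene-end sites held more reads per site than the other common sites in all 8 libraries, with and without the Foxp3 antibody, but they took a smaller share of the reads in Foxp3 libraries than in IgG libraries. Of all reads in common sites, gene-end sites held 23.5% and 39.2% in R397W Foxp3 libraries 1 and 2, against 26.9% and 42.4% in R397W IgG. In WT cells they held 19.4% and 35.2% in Foxp3 libraries, against 32.5% and 48.7% in IgG libraries. Exact 95% binomial intervals, for counting error only, reached at most 0.3 percentage points to either side. The Foxp3 share was below the IgG share of the same number in 4 of 4 pairs, by -3.40 and -3.16 points in R397W cells and by -13.1 and -13.6 points in WT cells. The gap was wider in WT in both numbers, with the R397W Foxp3 shares above the WT Foxp3 shares and the R397W IgG shares below the WT IgG shares. Library numbers differed by more than antibodies or genotypes, so the groups overlapped, and an exact permutation test of 2 against 2 libraries cannot give a two-sided p below 0.333.

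**Figure D2:**
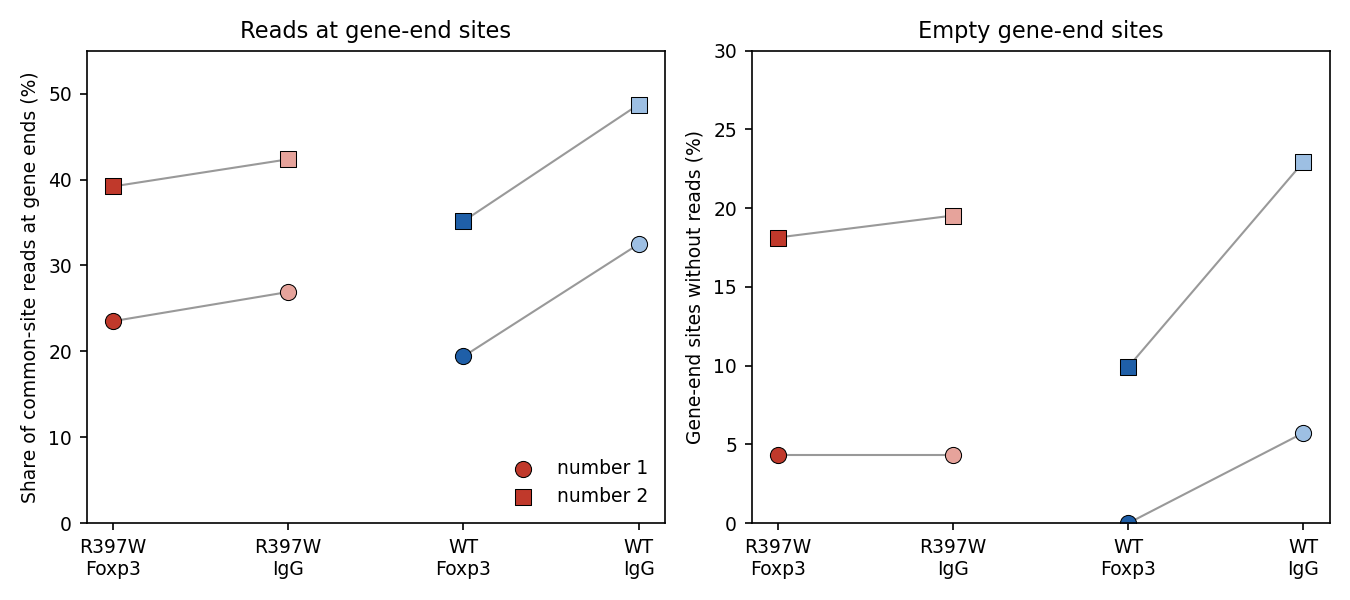
Share of common-site reads that fell in the 645 gene-end sites (left, percent) and share of gene-end sites without reads (right, percent), by group on the horizontal axis, with circles for library 1, squares for library 2 and grey lines joining libraries of the same number. The lines fall towards Foxp3 in all 4 pairs on the left, steeply in WT (19.4% against 32.5%, and 35.2% against 48.7%) and slightly in R397W (23.5% against 26.9%, and 39.2% against 42.4%).

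The same shares can be written per site, which restates them and adds no separate support. The mean normalised read count at gene-end sites, divided by that at the other common sites, was 1.53 and 3.20 in R397W Foxp3 libraries 1 and 2, 1.20 and 2.69 in WT Foxp3, 1.83 and 3.65 in R397W IgG, and 2.39 and 4.72 in WT IgG. In all 8 libraries gene ends were the stronger sites, and WT Foxp3 had the least difference and WT IgG the most within each number. The other common sites were without reads far more often, at 17.5% and 59.8% of sites in R397W Foxp3 and 4.40% and 49.7% in WT Foxp3. In IgG libraries these shares were 20.2% and 63.3% for R397W and 30.3% and 71.0% for WT.

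On the deposited scale, Foxp3 signal at gene ends did not exceed IgG in either genotype. The mean over the 645 sites was 79.0 and 87.8 in R397W Foxp3 libraries and 80.5 and 89.5 in R397W IgG, ratios of 0.982 and 0.981. It was 72.8 and 79.8 in WT Foxp3 libraries and 77.9 and 91.5 in WT IgG, ratios of 0.935 and 0.872. At the other common sites the ratios of Foxp3 to IgG were 1.18 and 1.12 in R397W cells and 1.87 and 1.53 in WT cells. If the libraries were scaled to equal totals over the common sites instead, the ratios at gene ends would be those of the shares, 0.874 and 0.925 in R397W and 0.597 and 0.721 in WT. Both scales gave ratios below 1 at gene ends in all 4 pairs. Both are set by the common sites themselves, so these ratios are relative to the other common sites and give no absolute level.

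Site by site, WT Foxp3 was below WT IgG in both pairs at 193 of 645 gene-end sites (29.9%) and at 127 of 3202 other common sites (3.97%). It was above in both pairs at 166 gene-end sites (25.7%) and at 32.4% of the other sites. In R397W cells, 147 gene-end sites (22.8%) were below IgG in both pairs and 141 (21.9%) above, close to even, while the other sites had 10.7% below and 16.5% above. Sites below IgG in all 4 pairs were 59 of 645 (9.15%) at gene ends and 26 of 3202 (0.812%) elsewhere. Those above in all 4 pairs were 42 (6.51%) at gene ends and 230 (7.18%) elsewhere. Equal values count as neither, and in WT pair 2 they occurred at 44 of 645 gene-end sites and 1388 of 3202 other sites. The next values are for the 409 gene-end sites and 406 other sites with reads in all 8 libraries. WT Foxp3 was below WT IgG in both pairs at 42.1% and 15.8% of them, and above at 17.4% and 42.6%. Below in all 4 pairs were 12.7% and 4.19%, and above 4.16% and 10.8%. The WT ratios were 0.827 and 0.810 at gene ends and 1.31 and 1.32 elsewhere. In R397W cells the ratios in these sites were 0.953 and 0.957 at gene ends and 1.12 and 1.02 elsewhere.

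Set against other sites of like strength and counted by site, the WT contrast was present in both pairs for the stronger sites and not for the weak ones. Equal values count as not above in these shares. Among sites with a mean of 100 or more over the 8 libraries, WT Foxp3 exceeded WT IgG at 28.0% and 38.5% of 200 gene-end sites in pairs 1 and 2, and at 67.1% and 72.1% of 240 other sites. Between 30 and 100, the shares were 48.5% and 55.5% of 330 gene-end sites and 80.7% and 62.9% of 992 other sites. In R397W cells at 100 or more, they were 43.0% and 50.5% of gene-end sites and 55.8% and 54.6% of other sites. Between 10 and 30, WT Foxp3 exceeded WT IgG at 65.4% and 47.4% of 78 gene-end sites and at 81.9% and 38.9% of 959 other sites, so the pairs went opposite ways in this count. The WT ratios of means there were lower at gene ends in both pairs, at 1.46 and 1.00 against 2.49 and 1.32. Below a mean of 10, WT Foxp3 exceeded WT IgG at 86.5% and 27.0% of only 37 gene-end sites and at 75.9% and 12.1% of 1011 other sites, higher at gene ends in both pairs. The ratios of means were 5.39 and 1.13 at these gene-end sites and 3.45 and 2.34 at the other sites.

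**Figure D3:**
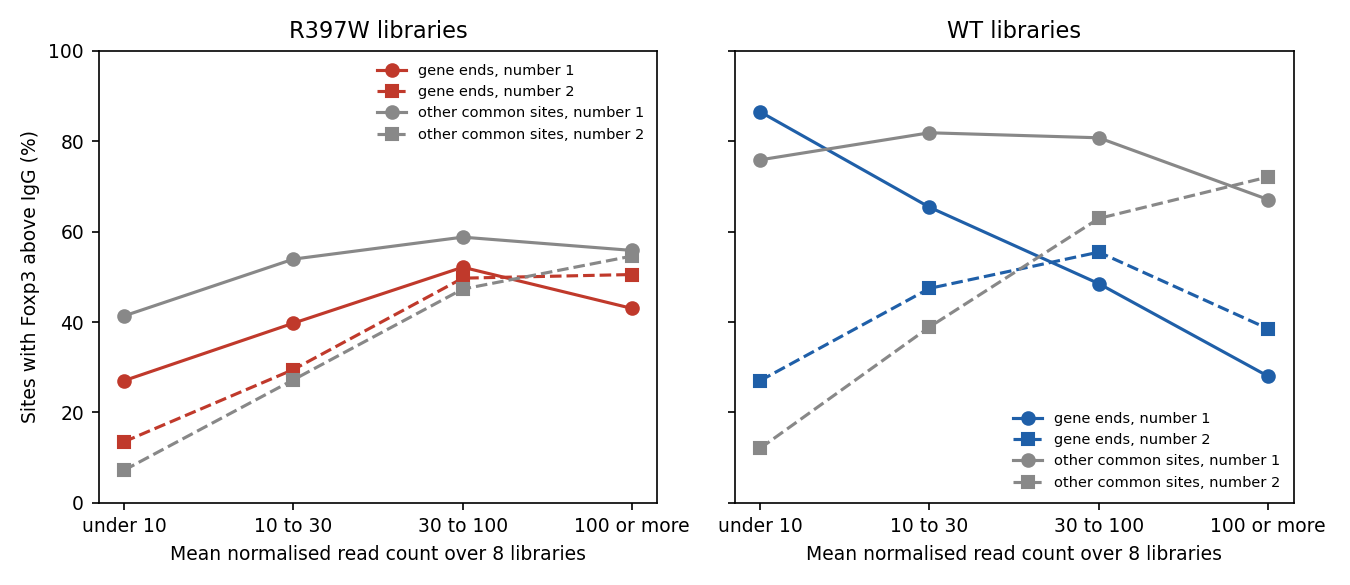
Percent of sites with Foxp3 above IgG (vertical axis) by the mean normalised read count over all 8 libraries (horizontal axis, 4 classes), for R397W (left) and WT (right), with gene-end sites coloured, other common sites grey, circles for pair 1 and squares for pair 2. In WT cells at a mean of 100 or more, gene-end sites lie at 28.0% and 38.5% and other sites at 67.1% and 72.1%, while in R397W cells the lines lie close together at 43.0% and 50.5% against 55.8% and 54.6%.

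The WT ratio differed between distance classes, also within the 1 kb limit. For the 334 sites centred less than 100 bp from a gene end, WT Foxp3 over IgG was 0.810 and 0.782. It was 0.947 and 0.909 at 140 sites from 100 bp, 1.29 and 1.09 at 69 sites from 250 bp, and 1.32 and 1.17 at 102 sites from 500 to 1000 bp. Beyond the limit the ratio was higher still, and at the 277 sites 100000 bp or more away it was 2.29 and 1.92. In R397W cells the ratio was 0.971 and 1.04 below 100 bp, 0.874 and 0.948 from 100 bp, 1.14 and 0.768 from 250 bp, 1.22 and 0.979 from 500 to 1000 bp, and 1.19 and 1.05 at 100000 bp or more. R397W ratios thus stayed between 0.768 and 1.22 in these 5 classes, and the WT ratios covered 0.782 to 2.29. The share of sites with reads in all 8 libraries moved along with distance, at 70.7% below 100 bp and 8.30% at 100000 bp or more, and its part in the trend was not tested.

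**Figure D4:**
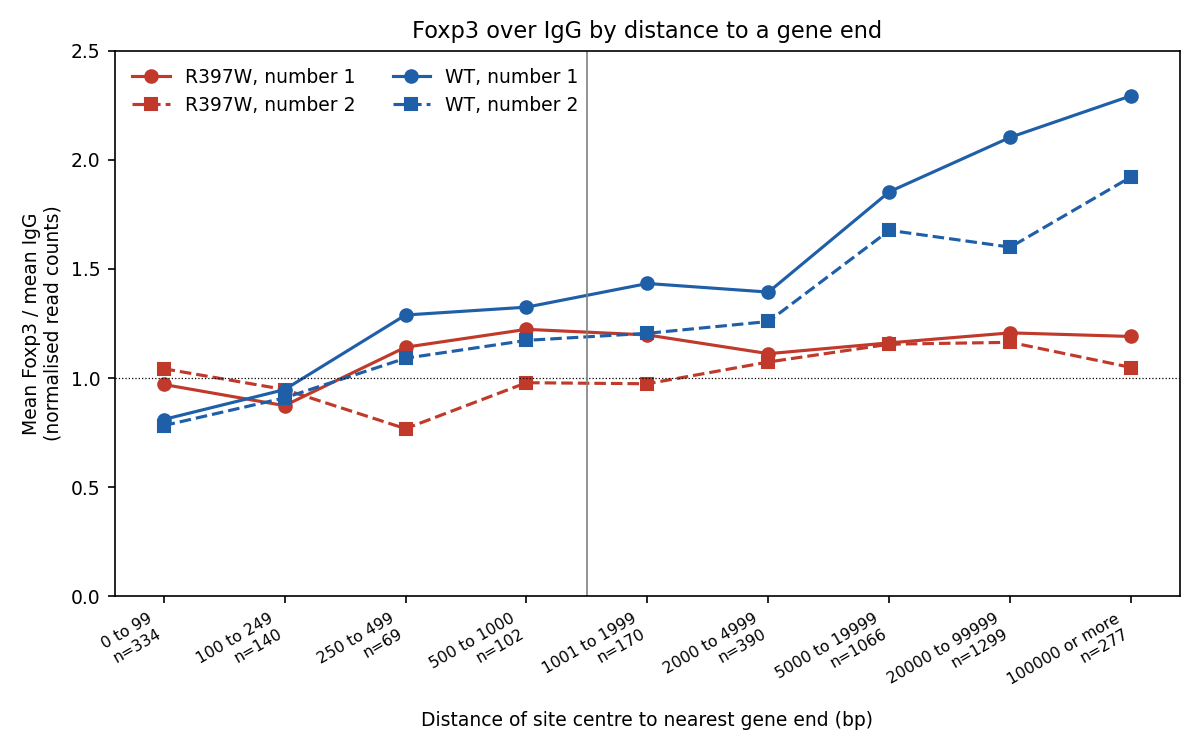
Mean Foxp3 over mean IgG normalised read count (vertical axis) by distance of the site centre to the nearest gene end in bp (horizontal axis, 9 classes with their number of sites), for R397W (red) and WT (blue) pairs 1 (circles) and 2 (squares), with the 1 kb limit as a vertical line. The WT lines are higher in far classes than in near ones, 0.810 and 0.782 below 100 bp and 2.29 and 1.92 at 100000 bp or more, whereas the R397W lines stay near 1.

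Sites at 3′ ends had higher WT ratios than those at starts. At the 48 sites nearest to a 3′ end, the WT ratio of Foxp3 to IgG was 2.00 and 1.73, and at the 453 sites nearest to a start it was 0.895 and 0.840. In R397W cells the 3′ ends had 0.983 and 2.00 and the starts 0.993 and 1.00. The 3′ ends were also weaker, with means of 62.5 and 29.9 in WT Foxp3 libraries against 74.9 and 84.0 at starts, and only 18.8% of them had reads in all 8 libraries against 66.9% of starts. At the 51 sites between starts on opposite strands, the WT ratio was 0.771 and 0.828. Sites in a gene body (331) and outside (314) had similar WT ratios, 0.931 and 0.867 inside and 0.938 and 0.877 outside. CpG-rich promoters (277) had WT ratios of 0.781 and 0.788 and R397W ratios of 0.945 and 0.956. The 96 other promoters had WT ratios of 1.12 and 0.960 and R397W ratios of 1.05 and 1.32. The 33 promoters with a forkhead match had WT ratios of 0.950 and 0.988, against 0.833 and 0.794 at the 340 without. Counted by site, WT Foxp3 exceeded WT IgG at 51.5% and 57.6% of the promoters with a match and at 35.3% and 42.4% of those without, with median log2 differences of 0.29 and -0.22. In R397W cells the matched promoters had 0.975 and 0.837 and the others 0.967 and 1.03.

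The strongest gene-end site by WT Foxp3 signal was also strong in IgG. It lay 131 bp before the start of 1700056E22Rik and within 1 kb of Dusp10, which encodes a phosphatase of stress-activated MAP kinases, and had 725 and 714 units in R397W Foxp3 libraries, 439 and 846 in WT Foxp3, 643 and 1109 in R397W IgG, and 502 and 859.9 in WT IgG. All 4 groups overlapped at this site. Dusp6 encodes a phosphatase that switches off ERK. Its site had 249 and 301 units in R397W Foxp3, 308 and 357 in WT Foxp3, 317 and 389 in R397W IgG, and 196 and 93.5 in WT IgG, so WT Foxp3 lay above WT IgG without overlap while R397W Foxp3 lay below R397W IgG, also without overlap. The promoter shared by Cct6a, a chaperonin subunit, and Psph, an enzyme of serine synthesis, had 278 and 278 units in R397W Foxp3, 209.8 and 455 in WT Foxp3, 349 and 553 in R397W IgG, and 233 and 382 in WT IgG. There the WT groups overlapped, and R397W Foxp3 lay below R397W IgG without overlap. Cfap20, named for a protein of cilia, showed the same in both genotypes, with 228 and 303 units in R397W Foxp3, 218 and 369 in WT Foxp3, 383 and 456 in R397W IgG, and 232 and 461 in WT IgG.

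Among the 8 sites with the highest WT Foxp3 mean, Slc37a3 and Polr2d, like Dusp6, had more Foxp3 than IgG in WT cells without overlap. The Slc37a3 site lay 348 bp from the 3′ end of this solute carrier gene and had 134 and 19.3 units in R397W Foxp3, 369.9 and 271 in WT Foxp3, 90.5 and 43.3 in R397W IgG, and 116 and 56.2 in WT IgG. Both WT Foxp3 values were above all 6 others. The Polr2d site, at the gene of an RNA polymerase II subunit, had 165 and 197 units in R397W Foxp3, 189 and 399 in WT Foxp3, 269 and 147 in R397W IgG, and 73.4 and 73.6 in WT IgG, so the R397W groups overlapped and the WT groups did not. Tbc1d15, a GTPase-activating protein for Rab7, and Ppp1r8, a regulatory subunit of protein phosphatase 1, had overlapping Foxp3 and IgG values in both genotypes. Tbc1d15 had 215 and 173 units in R397W Foxp3, 255 and 374 in WT Foxp3, 213 and 74.5 in R397W IgG, and 169 and 269.7 in WT IgG. Ppp1r8 had 192 and 412 units in R397W Foxp3, 278 and 303 in WT Foxp3, 201 and 250.1 in R397W IgG, and 153 and 313 in WT IgG.

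No gene-end site passed the test of WT Foxp3 against WT IgG, nor did any in the R397W cells. The test was limma's trended empirical Bayes fit on log2 of the normalised read count plus 1 over all 3847 common sites and 8 libraries, with Benjamini-Hochberg adjustment and a threshold of 0.05. In WT cells it called 0 of 645 gene-end sites, with 0.078% called over all common sites, and the lowest adjusted p at a gene-end site was 0.165, at Cd3g. At an unadjusted p under 0.05, 18 gene-end sites were higher in Foxp3 (2.79%, against 2.96% of all common sites) and 3 lower (0.465%, against 0.156%). In R397W cells it called 0 sites, with 0% over all common sites, and at an unadjusted p under 0.05 there were 9 higher and 6 lower, against 1.04% and 0.65% of all common sites. Counts of whole reads tested with edgeR and DESeq2 gave 0 calls in either genotype. Leaving out a library changed the count for WT, always with Foxp3 higher and with the lone library assumed to vary like the other groups. It was 4 without WT Foxp3 library 1 (0.442% of all common sites called), 7 without WT Foxp3 library 2 (3.25%) and 9 without WT IgG library 1 (1.38%). The sites called without a WT Foxp3 library had no reads in any WT IgG or R397W library. The fit thus had no spread between libraries at these sites, and such calls cannot be read as binding. Those called without WT IgG library 1 had at most 5.47 units in the remaining one.

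The median log2 difference of WT Foxp3 minus WT IgG was 0.055 over the gene-end sites, 339 of them positive and 306 negative, and 1.15 over all common sites. On equal totals the gene-end median was -0.38, with 250 positive and 395 negative, beside 0.89 over all common sites. By TMM it was -0.14 beside 1.09, so the sign at gene ends depended on the scaling and the lower position against all common sites did not. In R397W cells the medians were -0.0011 over gene-end sites and 0.053 over all. The WT libraries did not overlap at 227 gene-end sites. Foxp3 was the higher group at 99 of these (15.3%, against 19.4% of all common sites) and the lower at 128 (19.8%, against 5.28%). In R397W cells, Foxp3 was higher without overlap at 90 gene-end sites (14.0%, against 10.9%) and lower at 89 (13.8%, against 8.03%). Separation of 2 against 2 libraries is frequent by order alone, since the smallest exact two-sided permutation p is 0.333. A group with an empty library cannot be the higher one without overlap. In WT IgG library 2, 22.9% of gene-end sites and 71.0% of other common sites were empty. The part of empty sites in these shares was not tested.

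The 4 WT sites with the largest differences in favour of Foxp3, among those whose libraries did not overlap, each had at least 1 IgG library at 0. Pik3cg, encoding the catalytic subunit of PI3-kinase gamma, had 59.4 and 14.9 units in WT Foxp3 and 0 and 0 in WT IgG, at least 21.4-fold higher when IgG is set to 3 reads per library. In R397W it had 28.9 and 25.8 in Foxp3 and 43.0 and 56.0 in IgG, in the other direction. Arhgap11a, a GTPase-activating protein gene, had 42.4 and 12.1 in WT Foxp3 and 0 and 0 in WT IgG, at least 15.7-fold higher by the same floor. Frg1 had 116 and 135 in WT Foxp3 and 28.4 and 0 in WT IgG, a log2 difference of 4.54 ± 1.87 (SE). Cenpa, the centromeric histone H3 variant gene, had 199 and 99.2 in WT Foxp3 and 37.0 and 0 in WT IgG, a difference of 4.52 ± 2.49. In the opposite direction, the RNA helicase gene Dhx33 had 13.3 and 74.0 in WT Foxp3 and 161 and 222 in WT IgG (-2.53 ± 1.46). Ly96, which encodes the MD-2 partner of Toll-like receptor 4, had 15.8 and 4.19 against 56.2 and 208 (-3.55 ± 2.85), and Tmem71 had 20.6 and 0 against 21.8 and 73.6 (-3.15 ± 2.65). The standard errors are large beside these differences.

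In R397W cells the sites with the largest differences also rested on near-empty libraries. Cfap46, a cilia and flagella gene, had 60.4 and 180.4 units in R397W Foxp3 and 18.1 and 0 in R397W IgG. Pon2, a paraoxonase gene, had 142 and 67.0 in Foxp3 and 15.8 and 0 in IgG. AW146154 had 118 and 109.5 in Foxp3 and 22.6 and 0 in IgG, and Ctdsp2, a phosphatase gene, had 70.9 and 168 in Foxp3 and 24.9 and 0 in IgG. These 4 had log2 differences of 4.43 to 4.59. In the opposite direction, Echdc3 had 18.4 and 0 in R397W Foxp3 and 140.3 and 85.3 in R397W IgG. The Rpf2 site, which belongs to a ribosome assembly factor gene and lies within 1 kb of Gtf3c6 as well, had 5.25 and 0 in Foxp3 and 38.5 and 71.3 in IgG. The Mediator subunit gene Med8 had 60.4 and 0 against 97.3 and 136, and the zinc finger gene Zfp62 had 18.4 and 0 against 61.1 and 66.8. These had log2 differences of -4.65 to -3.88, none of which passed the test.

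Across both genotypes, 7 gene-end sites had all 4 Foxp3 values above all 4 IgG values (1.09%, against 1.43% of all common sites), and 11 had all 4 below (1.71%, against 0.442%). Of the 17 sites with all 4 below among all 3847, 11 were gene-end sites. A site with an empty IgG library cannot have all 4 Foxp3 values below, and empty sites were fewer at gene ends. In WT IgG library 2, 22.9% of gene-end sites and 71.0% of other common sites were empty. The 7 and 11 gene-end sites were picked out after their values were seen, and none was called by limma. Nanos1, an RNA-binding protein gene, had 142 and 182 units in R397W Foxp3 and 34.0 and 64.9 in R397W IgG, and 108 and 109.9 in WT Foxp3 and 29.1 and 34.8 in WT IgG. Its Foxp3 values were all above 100 units and its IgG values all below. Zup1, encoding a deubiquitinase, had 102 and 106 in R397W Foxp3 and 24.9 and 28.0 in R397W IgG, and 88.5 and 167 in WT Foxp3 and 60.8 and 24.4 in WT IgG. Strn4, a striatin gene, had 113 and 154 in R397W Foxp3 and 92.8 and 49.0 in R397W IgG, and 141 and 163 in WT Foxp3 and 62.8 and 1.49 in WT IgG. The others were Grap, a GRB2-related adaptor gene, Ifi27l2a, Exoc2 and Cfap46.

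Sites on the other side included well-known genes. Ctnnb1, which encodes beta-catenin, had 7.88 and 20.0 units in R397W Foxp3 and 86.0 and 154 in R397W IgG, and 40.0 and 42.8 in WT Foxp3 and 68.7 and 134 in WT IgG. Fbxo42, an F-box gene, had 42.0 and 9.02 in R397W Foxp3 and 143 and 104 in R397W IgG, and 24.3 and 20.5 in WT Foxp3 and 69.4 and 145 in WT IgG. The zinc finger gene Zfp507 had 10.5 and 53.5 in R397W Foxp3 and 83.7 and 78.3 in R397W IgG, and 20.6 and 12.6 in WT Foxp3 and 85.9 and 101 in WT IgG. In all 3 every Foxp3 value lay below every IgG value. Aacs, an acetoacetyl-CoA synthetase gene whose promoter holds the forkhead match shown above, had 73.5 and 32.9 in R397W Foxp3 and 229 and 120.3 in R397W IgG, and 103 and 62.9 in WT Foxp3 and 169 and 148 in WT IgG. Also among the 11 were Terf1, a telomere-binding protein gene, Atg16l1, an autophagy gene, Ap5m1, Pofut1 and Nipsnap2.

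**Figure D5:**
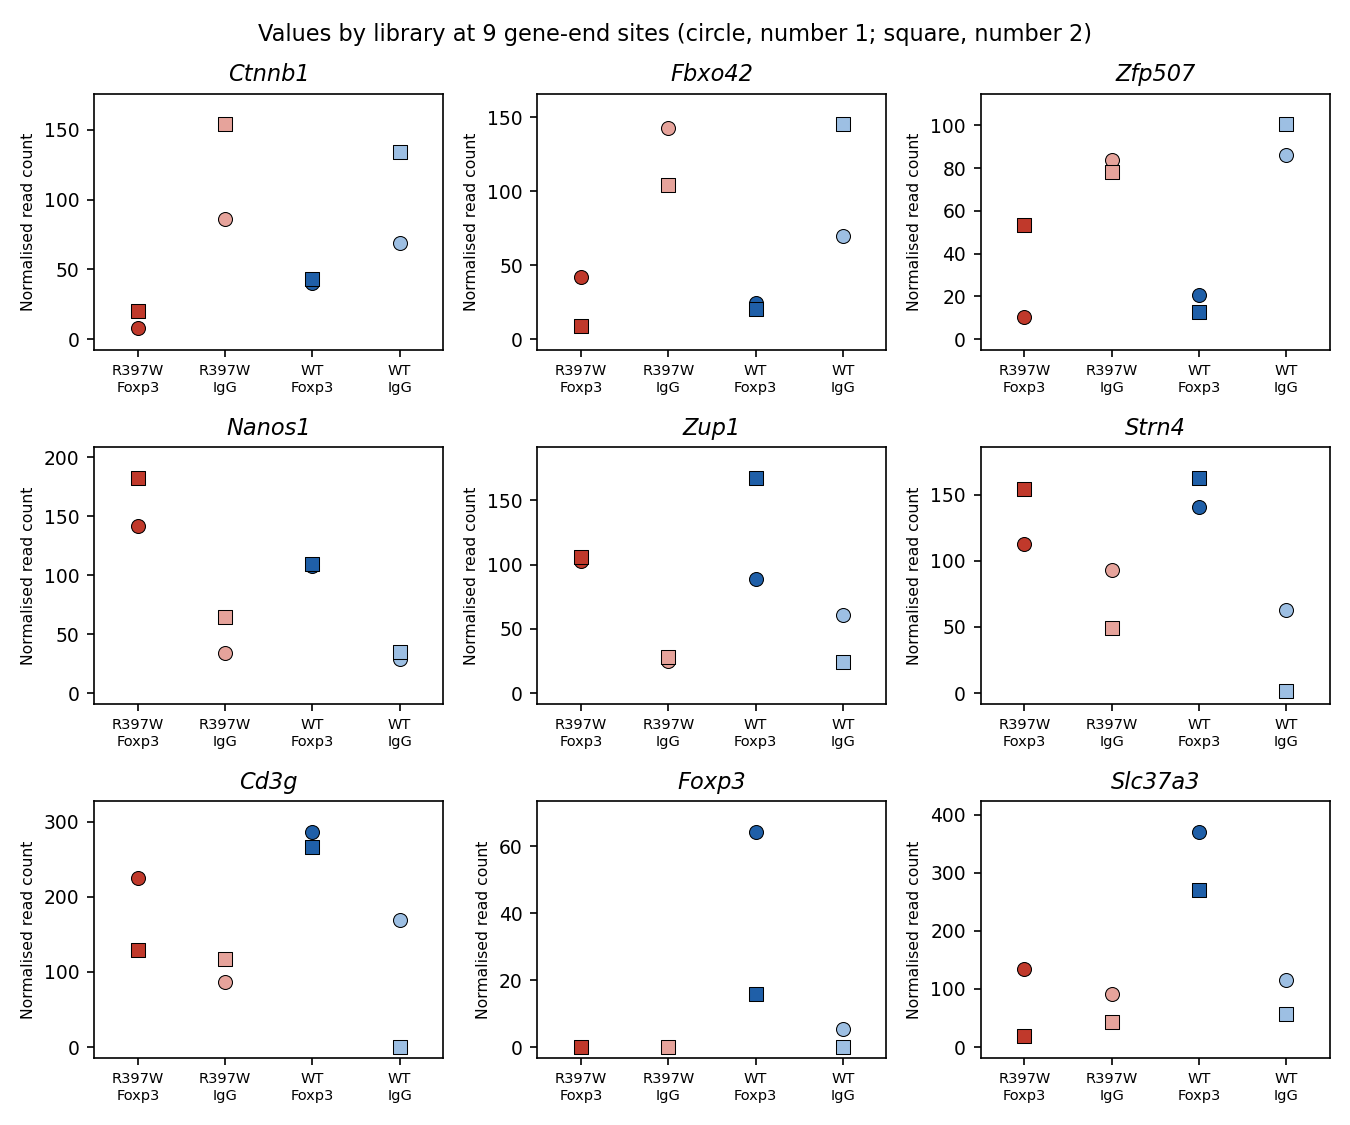
Normalised read counts (vertical axes, each with its own scale) of 9 gene-end sites in the 4 groups (horizontal axis), 1 point per library, circles for library 1 and squares for library 2. Every Foxp3 value lies below every IgG value at Ctnnb1, Fbxo42 and Zfp507 and above at Nanos1, Zup1 and Strn4, while at Foxp3 and Slc37a3 the WT Foxp3 values lie above the other groups.

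Between genotypes, the mean Foxp3 signal at gene-end sites differed by about the spread between libraries. Their mean was 83.4 ± 6.18 units in R397W Foxp3 libraries and 76.3 ± 4.97 in WT Foxp3 libraries (SD, n = 2 each), with same-number ratios of 1.09 and 1.10. In IgG libraries the means were 85.0 ± 6.36 in R397W and 84.7 ± 9.63 in WT (SD, n = 2 each), with ratios of 1.03 and 0.978. The other common sites went the other way in Foxp3 libraries, with R397W over WT ratios of 0.850 and 0.924, and had IgG ratios of 1.35 and 1.27. The median log2 difference of R397W minus WT Foxp3 was -0.053 over gene-end sites and -0.33 over all common sites. On equal totals the gene-end median was 0.035, and by TMM it was -0.078.

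No gene-end site was called between genotypes by limma, fitted on the 4 Foxp3 libraries, with 0% called over all common sites. At an unadjusted p under 0.05, 2 gene-end sites were higher and 1 lower in R397W, against 0.078% and 0.26% of all common sites. edgeR and DESeq2 also called 0. The libraries did not overlap at 97 gene-end sites that were higher in R397W (15.0%, against 6.6% of all common sites) and 100 that were lower (15.5%, against 11.9%). In the IgG libraries the corresponding counts were 104 higher (16.1%, against 12.2%) and 97 lower (15.0%, against 5.93%), close to the counts with the Foxp3 antibody. Here too a group with an empty library cannot be the higher one. In R397W Foxp3 library 2, 18.1% of gene-end sites and 59.8% of other common sites were empty. Without WT Foxp3 library 2, 22 gene-end sites were called lower in R397W (3.41%, against 11.6% of all common sites). The sites called were all the gene-end sites without reads in either R397W Foxp3 library. With a lone WT library the fit had no spread at such sites, so these calls were fixed by the empty libraries. An interaction of genotype and antibody, fitted over all 8 libraries, gave 0 calls at gene ends with 0% called over all common sites. At an unadjusted p under 0.05 it gave 3 higher and 10 lower in R397W, against 0.338% and 1.56%. Its median was -0.22 over gene-end sites and -0.97 over all common sites, and on equal totals these were 0.092 and -0.79. Without WT Foxp3 library 2, the gene-end sites called lower had no reads in any R397W Foxp3 or WT IgG library. Those calls are not read as a genotype difference.

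The site at the Foxp3 promoter, 170 bp before the start at chrX:7579306-7579706, had the largest difference among the sites named for this contrast. It had 0 and 0 units in R397W Foxp3 and 64.3 and 15.8 in WT Foxp3, and 0 and 0 in R397W IgG and 5.29 and 0 in WT IgG. With R397W set to 3 reads per library (7.88 and 1.93 units), R397W Foxp3 was at least 8.17-fold lower than WT Foxp3. That bound covers the choice of floor only, and not the spread between libraries. The log2 difference in the fit was -5.05 ± 3.38 (SE), and the site was not called. The site had no reads in any R397W library, IgG included. Other sites lower in R397W included the promoter of Mrpl36, a mitochondrial ribosomal protein gene that shares it with the respiratory chain gene Ndufs6, with 99.8 and 0.644 units in R397W Foxp3 and 216 and 337 in WT Foxp3. Its IgG values were 70.2 and 357 in R397W and 80.0 and 185 in WT, and its log2 difference between genotypes in Foxp3 libraries was -4.39 ± 1.94 (SE). Ino80b, a chromatin remodeller subunit gene, had 5.25 and 0 in R397W Foxp3 and 40.0 and 76.8 in WT Foxp3 (-4.50 ± 3.12). Rpf2 had 5.25 and 0 in R397W Foxp3 and 32.7 and 43.8 in WT Foxp3 (-3.96 ± 3.39). In each of these at least 1 R397W library was at or near 0.

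Sites higher in R397W had a near-empty WT library in turn. Cytip, encoding a cytohesin-interacting protein of leukocytes, had 152 and 103 units in R397W Foxp3 and 52.2 and 0 in WT Foxp3 (4.11 ± 2.18, SE), with 83.7 and 0 in R397W IgG and 0 and 0 in WT IgG. Snrpd1, a core spliceosomal protein gene, had 129 and 50.9 in R397W Foxp3 and 23.0 and 0 in WT Foxp3 (4.06 ± 2.44), and Psmg3, a proteasome assembly chaperone gene, had 76.1 and 50.3 in R397W Foxp3 and 15.8 and 0.466 in WT Foxp3 (3.66 ± 2.47). Nrde2 had 110.3 and 94.1 in R397W Foxp3 and 47.3 and 1.86 in WT Foxp3 (3.13 ± 1.73). At Snrpd1 the R397W IgG values of 83.7 and 84.0 were also above the WT IgG values of 38.3 and 5.97. The same held at Psmg3, with 52.1 and 30.5 in R397W IgG and 21.1 and 0 in WT IgG. At Nrde2 the R397W IgG values of 140.3 and 124 were above the WT IgG values of 92.5 and 26.4 too.

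No T cell gene with a gene-end site was called in any contrast. Of the core Treg list, 3 of 20 genes had such a site (Cd28, Foxp3 and Il2ra), and of the T cell receptor list 4 of 22 (Cd3g, Cd6, Lat and Ubash3a). The naive and resting list had 3 of 16 (Bach2, Igf1r and Il7r), the AP-1, IRF and NFAT list 3 of 18 (Bach2, Fosl2 and Irf4), the effector Treg list 1 of 30 (Irf4), the NF-kB list 1 of 18 (Nfkb1), and the list of Foxp3 partners 1 of 17 (Runx1, with 2 sites). Of the Treg markers Foxp3, Il2ra, Ctla4, Ikzf2 and Tnfrsf18, only Foxp3 and Il2ra had a common site at a gene end. None of 6 B cell, 5 myeloid and 5 CD8 T and NK cell marker genes had one.

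Cd3g had the lowest adjusted p of all gene-end sites for WT Foxp3 against IgG. It encodes the gamma chain of CD3, and its site 88 bp before the start had 226 and 129 units in R397W Foxp3, 286 and 266 in WT Foxp3, 86.0 and 118 in R397W IgG, and 169 and 0 in WT IgG. Foxp3 exceeded IgG without overlap in both genotypes, with log2 differences of 0.76 ± 1.21 (SE) in R397W and 4.41 ± 1.21 in WT, where limma's adjusted p was 0.165. The WT difference passed the threshold when values were capped at the 99th percentile of each library, an alternative added after the data were seen. Cd6, a costimulatory receptor gene, had 55.1 and 49.6 in R397W Foxp3, 114 and 139 in WT Foxp3, 149 and 140.0 in R397W IgG, and 167 and 0 in WT IgG. There R397W Foxp3 lay below R397W IgG and below WT Foxp3 without overlap. WT IgG library 2 had no reads at either Cd3g or Cd6. Both were among the 9 sites called without WT IgG library 1, where that 0 is the only WT IgG value left.

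The adaptor gene Lat had 228 and 135 units in R397W Foxp3, 152 and 167 in WT Foxp3, 152 and 136 in R397W IgG, and 202 and 608 in WT IgG, so WT Foxp3 lay below WT IgG without overlap. Ubash3a, a negative regulator of T cell receptor signalling, had 139 and 160.4 in R397W Foxp3, 94.6 and 156 in WT Foxp3, 219.6 and 116 in R397W IgG, and 122 and 166 in WT IgG, with all groups overlapping. Cd28, the costimulatory receptor gene, had 137 and 73.4 in R397W Foxp3, 193 and 85.7 in WT Foxp3, 174 and 106 in R397W IgG, and 201 and 10.9 in WT IgG. Il2ra, the CD25 chain of the IL-2 receptor, had 78.8 and 0.644 in R397W Foxp3, 113 and 37.2 in WT Foxp3, 56.6 and 0 in R397W IgG, and 97.8 and 79.6 in WT IgG. At Cd28 all groups overlapped, and at Il2ra the R397W IgG values lay below both WT IgG values while the other groups overlapped.

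Apart from the Foxp3 site described above, which was not called either, 6 sites lay at transcription factor genes of these lists. None of them was called. Fosl2, an AP-1 gene, had 263 and 195 units in R397W Foxp3, 246 and 309 in WT Foxp3, 238 and 424 in R397W IgG, and 288 and 229.9 in WT IgG. Bach2, a repressor that keeps T cells in a resting state, had 126 and 222 in R397W Foxp3, 76.4 and 213 in WT Foxp3, 174 and 374 in R397W IgG, and 74.0 and 104 in WT IgG. At both genes Foxp3 overlapped with IgG in each genotype and R397W Foxp3 with WT Foxp3, while the Bach2 R397W IgG values lay above the WT IgG values. Runx1, a DNA-binding partner of Foxp3, had a site 283 bp before its start with 218 and 39.3 in R397W Foxp3, 326 and 132 in WT Foxp3, 249 and 28.6 in R397W IgG, and 86.6 and 37.3 in WT IgG, the WT groups being separate. A second Runx1 site, 426 bp after the start, had 70.9 and 12.2 in R397W Foxp3, 114 and 28.9 in WT Foxp3, 52.1 and 16.5 in R397W IgG, and 68.7 and 0.498 in WT IgG, with overlap. Nfkb1, encoding the p105 precursor of NF-kB p50, had 57.8 and 43.2 in R397W Foxp3, 63.1 and 128 in WT Foxp3, 102 and 159 in R397W IgG, and 176 and 98.5 in WT IgG. Its R397W Foxp3 values lay below both R397W IgG and WT Foxp3. Irf4, a factor of effector Treg cells, had 99.8 and 0 in R397W Foxp3, 57.0 and 50.8 in WT Foxp3, 0 and 0 in R397W IgG, and 43.0 and 11.9 in WT IgG. WT Foxp3 lay above WT IgG there. Igf1r, a growth factor receptor gene of the naive list, had 18.4 and 73.4 in R397W Foxp3, 50.9 and 53.1 in WT Foxp3, 18.1 and 110.1 in R397W IgG, and 15.9 and 25.4 in WT IgG, again with WT Foxp3 above WT IgG.

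Groups of genes with general functions had 0 calls as well. Of 95 ribosomal protein genes 3 had a gene-end site, and of 78 mitochondrial ribosomal protein genes 10 had 11 sites. At those 11 sites the R397W minus WT Foxp3 difference was positive at 7 and negative at 4. The WT Foxp3 minus IgG difference was positive at 3 and negative at 8. Its median was -0.24, beside 0.055 over all gene-end sites and 1.15 over all common sites. For 12 splicing and helicase genes, among them Snrpb, Sf3b3 and Hnrnpd, the genotype difference was positive at 10 and negative at 2. Their median log2 difference was 1.00, beside -0.053 over all gene-end sites and -0.33 over all common sites. Their mean signal was 90.6 and 114 units in R397W Foxp3 and 54.0 and 55.9 in WT Foxp3, and 56.0 and 86.2 in R397W IgG and 92.2 and 105 in WT IgG. For 17 ubiquitin ligase and protease sites, such as those of Usp12, Rnf26 and Fbxo45, the genotype difference was positive at 3 and negative at 14. Its median was -0.29, beside -0.053 over all gene-end sites and -0.33 over all common sites. The R397W Foxp3 minus IgG difference was likewise positive at 3 and negative at 14, and these comparisons share the R397W Foxp3 libraries. Its median was -0.89, beside -0.0011 over all gene-end sites and 0.053 over all common sites. The 5 proteasome sites had a median genotype difference of -1.81 beside the same -0.053 and -0.33, with 1 positive and 4 negative. The 17 zinc finger sites had 11 positive and 6 negative, and the 11 sites of genes with a solute carrier (Slc) symbol 7 and 4. The 3 sites of small GTPase genes (Arl1, Rab13 and Rab7) had 2 positive and 1 negative, and no histone gene had a site. No group count here is a test, since members of a group are not replicates.

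Sites next to the 1 kb limit varied widely in strength on both sides. The 3 sites just inside lay 990 bp (Agap2), 991 bp (Cytip) and 993 bp (Zfp281) from a gene end. Agap2 had 144 and 4.51 units in R397W Foxp3 and 83.7 and 40.0 in WT Foxp3, with 74.7 and 94.2 in R397W IgG and 53.5 and 57.7 in WT IgG. Zfp281 had 0 and 0 in R397W Foxp3, 8.49 and 9.78 in WT Foxp3, and 0 in all 4 IgG libraries. The 3 sites just outside lay 1004 bp (Cage1), 1005 bp (Snx14) and 1014 bp (Git2) away. Cage1 had 44.6 and 7.73 in R397W Foxp3 and 40.0 and 46.6 in WT Foxp3, with 56.6 and 0 in R397W IgG and 25.8 and 16.9 in WT IgG. Snx14 had 10.5 and 30.3 in R397W Foxp3 and 8.49 and 0 in WT Foxp3, with 0 and 0 in R397W IgG and 2.64 and 0 in WT IgG. Git2 had 97.1 and 194 in R397W Foxp3 and 71.6 and 156 in WT Foxp3, with 122 and 101 in R397W IgG and 106 and 134 in WT IgG.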

How the data were processed

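CUT&Tag libraries of R397W and WT Treg cells with a Foxp3 antibody or IgG (2 per group, grouped by their titles) were analysed. The deposited values are a normalised signal per site and library, which the authors call spike-in normalised per the file names. Tools listed without a role in the submitters' processing notes are DiffBind 3.12.0 and Bowtie2 2.5.2, beside the dm6 and mm10 builds. Not given in the sources used here are the peak caller and the handling of duplicates. Within a library 100% of the values of the common-site table were whole multiples of the smallest (tolerance 0.01 reads), and the fits used that table alone because the 3 site tables were scaled separately. Spike-in nuclei were added per the labels' protocols, but the factors in the table equal median-of-ratios factors, which remove a genome-wide gain or loss.

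Tests used limma 3.58.1 in R 4.3.3 (two-sided, trended, pseudocount 1), with edgeR 4.0.16 and DESeq2 1.42.0 on recovered reads as alternatives. The code was checked on simulated counts with large planted changes, which does not measure the power of the tests on these data. Fold changes on log2(value + 1) understate weak sites, and those of sites with an empty group depend on the pseudocount. With empty groups set to 3 reads, the gene-end medians were -0.020 for R397W minus WT Foxp3 and 0.050 for WT Foxp3 minus IgG. The files hold sums over listed sites, not library depths, and intervals cover counting error only.

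Distances are to either end of 21883 protein-coding genes, and 17491 had a strand through the promoter table. Named sites are the 8 with the highest WT Foxp3 mean, up to 12 with a gene in a T cell list, per contrast the 4 largest differences each way among sites without overlap and a mean of at least 20, and 3 on either side of the limit. A few sites that these rules pick are not reported here. Members, gene lists and rules were chosen with earlier results of these data known. Positions relative to exons, introns or UTRs were not analysed.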

Additional observations from a re-analysis of the deposited data

How the results depend on the processing

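Counts of called gene-end sites stayed at 0 in all 4 contrasts under pseudocounts of 0.5 and 5, with the weakest sites left out, on equal totals, by TMM, with edgeR or DESeq2, without the trend, over the 3 tables together, within 500 bp, within 2 kb and for starts only. Capping each library at its 99th percentile, which was chosen after the data were seen for these counts, gave 1 call for WT Foxp3 against IgG (Cd3g) and 0 otherwise. Leaving out a library gave 0 to 22 calls for R397W against WT Foxp3, 0 to 9 for WT Foxp3 against IgG, 0 to 8 for the genotype difference in Foxp3 over IgG, and 0 for R397W Foxp3 against IgG. Median log2 differences moved by more than their spread with the choice of sites and libraries. For R397W minus WT Foxp3 the median was 0.010 within 500 bp, -0.085 within 2 kb and 0.017 for starts only, and -0.11 to 0.056 with a library left out. For WT Foxp3 minus IgG it was -0.059, 0.19 and -0.050 in the same order, and -0.12 to 0.10 with a library left out. For R397W Foxp3 minus IgG it was -0.018 within 500 bp and 0.019 for starts only, and -0.21 to 0.080 with a library left out. For the genotype difference in Foxp3 over IgG it was -0.12, -0.30 and -0.081, and -0.36 to 0.052 with a library left out. The cause was not tested. Shares of reads and ratios to the other common sites moved by less than the spread between libraries under a 500 bp or 2 kb limit, starts only and capping. That spread comes from libraries 1 and 2 of a group, whose shares were 23.5% and 39.2% in R397W Foxp3. It is wide beside the R397W gap between antibodies of -3.40 and -3.16 points, so few changes could exceed it. Of 424 values of named sites under alternatives, 17 moved by more than the spread and 0 changed sign.

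With the library number as a replicate block, 0 gene-end sites were called in each of the 4 contrasts, as without it. Deviations of same-numbered libraries correlated at 0.0574 to 0.208 over all common sites and at 0.177 to 0.301 over the gene-end sites. A contrast has only 2 numbers and the labels do not say what the number marks, so the blocked fit is not read as a paired design. A single read was worth up to 2.63 units, which limits the precision of weak sites. Empty gene-end sites were more frequent in library 2 of each group, which had more reads than library 1, and their cause was not tested.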
